A study of Mus musculus with 4 samples.

Results

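The array design used for nasal mucosa holds probes that carry no gene name. Their names give only a chromosome, a start, an end and a letter, F or R. These probes were selected as all non-control probes whose systematic name had that form, which gave 4449 of the 56605 probes on the array. Probes with the same name were averaged into 1 feature, so that 4061 interval features (2068 with the letter F and 1993 with R) stood for 3229 distinct intervals, among 45604 features tested in all. Of the interval features, 3745 rested on 1 probe and 316 on more, with 6 probes at most. The intervals were 62 to 538251 bases long, with a median of 10251 bases, in the coordinates of the mouse build mm9 that the array design names. The deposited files do not say whether F and R name the strand of the RNA or of the genome, so the letters are given as they stand.

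The samples were 4 one-colour arrays of nasal mucosa, labelled olfactory epithelium, from male C57BL/6J mice with no treatment. They were 2 arrays of young adult mice (8 weeks) and 2 of aged mice (16 months). Each array was hybridized with RNA pooled from 5 mice, and the methods count fewer mice for gene analyses than separate pools would take, so that the pools of an age are likely to share animals and P values measure the spread between these pools only. A further description attached to the samples names silica and lung, fits neither the titles nor the tissue, and was set aside. All 8 markers of mature olfactory receptor neurons were well above background on all 4 arrays. In whole mucosa, a lower level can mean fewer cells of a type or less RNA per cell, and these cannot be told apart.

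Long intergenic noncoding RNAs are transcribed from the stretches between protein-coding genes, are often spliced and polyadenylated like messenger RNAs, and have little or no coding potential. They tend to be less abundant and more restricted to particular tissues than messenger RNAs, and the function of most is not known. A few act on chromatin or on the expression of neighbouring genes. Interval probes of such arrays are generally designed against stretches of the genome thought to give rise to such RNAs. The files hold no transcript for an interval, so that the noncoding and intergenic nature of each feature rests on the array design, and no gene of another build was assigned to any interval.

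Interval features were dimmer than genes with a symbol. The normalized intensity averaged over the 4 arrays, called the level below, had a median of 69.5 over the interval features (quartiles 32.2 and 207), against 365 over 22902 genes with a symbol and 35.3 over the 2590 of these annotated as long noncoding RNA. Levels of at least 100 were found for 1647 interval features (40.6%), for 67.5% of the genes with a symbol and for 25.9% of the long noncoding RNA genes. The brightness of a probe also depends on its sequence, so these shares describe the probes and not the amounts of RNA.

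**Figure D1:**
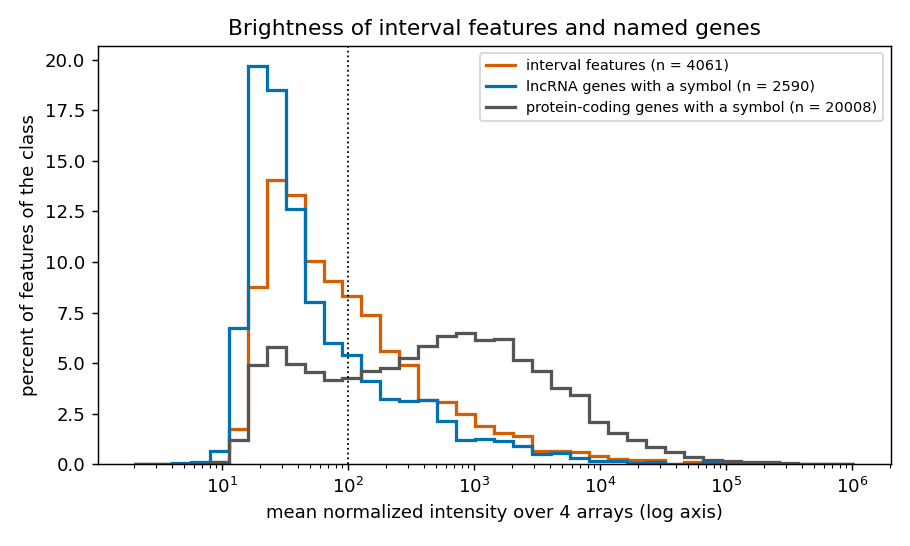
Percent of features (vertical axis) by mean normalized intensity over the 4 arrays (horizontal log axis) for the 4061 interval features, 2590 long noncoding RNA genes and 20008 protein-coding genes with a symbol; the dotted line marks a level of 100. The interval features peak below the line, between the long noncoding RNA genes and the protein-coding genes.

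The scanner software flags a probe as well above background when its signal clears the local background by a margin. On the young adult arrays, 51.3 and 68.2% of the 4449 interval probes carried this flag, and on the aged arrays 44.6 and 59.2%. The ages overlapped, and the mean share was 59.8% ± 11.9 (SD, n = 2) in young adult and 51.9% ± 10.3 (SD, n = 2) in aged mice, a difference of -7.90 percentage points (exact two-sided permutation P = 0.667, where 2 arrays against 2 cannot go below 0.33). The shares moved with the background of the arrays: the median local background was 67 on young adult array 1 and 63 on aged array 1, which share a slide, and 32 and 39 on the other two. Its part in the shares was not tested.

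Taking a feature as detected when both arrays of either age flagged a probe of it as well above background, 2135 interval features (52.6%) were detected, against 74.8% of the genes with a symbol and 34.9% of the long noncoding RNA genes. On all 4 arrays 1791 interval features (44.1%) were well above background, with a median level of 248. A further 1150 (28.3%) were so on no array, with a median level of 24.8. Few features had 2 flags in one age and 0 in the other: 14 with the 2 flags in young adult and 5 with them in aged mice. More had 2 flags in one age and 1 in the other. These were 305 features with the 2 flags in young adult and 20 with them in aged mice.

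Detection was also set against length and chromosome. Of 939 features under 1 kb, 42.1% were detected, against 56.6% of 1057 features of 1 to 10 kb, 53.6% of 1269 features of 10 to 30 kb and 58.0% of 796 features of 30 kb and above. By chromosome the share ran from 41.8% of 249 features on chromosome 13 to 65.1% of 215 on chromosome 17. These shares are descriptions and were not tested.

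The brightest interval features did not pass the test between ages. The brightest, chr17:17481706-17482457 R (mm9), had a mean of 99805 over the 4 arrays, and its log2 difference, aged minus young adult, was -0.16 ± 0.08 (SE, FDR = 0.523 by limma). The next 4, chr14:78924115-78938125 F, chr11:22681800-22707775 R, chr12:73838608-73862621 R and chr7:108209996-108216032 R, had differences of -0.04, -0.05, -0.05 and 0.01. None of these 5 passed, and for 3 of them the sign of the difference turned under another processing or without 1 array.

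The question of the design was which RNAs differ between young adult and aged mucosa. A feature was called when limma gave P below 0.05 and a false discovery rate (FDR, Benjamini-Hochberg over all 45604 features) below 0.25, and it was past all limits when its level also reached 100 and its fold change reached 1.5. Of the 4061 interval features, 86 (2.12%) were called, 50 higher and 36 lower in aged mice, where the share over all features was 3.98% (1.65% higher and 2.33% lower). With scaling to the 75th percentile in place of quantile normalization the split turned to 33 higher and 38 lower. Past all limits were 38 (0.936%), 20 higher and 18 lower, where the share over all features was 1.96% (0.814% higher and 1.15% lower). Among the 1647 interval features with a level of at least 100 this was 2.31%, beside 3.51% of all features with such a level. Among genes with a symbol 5.31% were called, and among long noncoding RNA genes with a symbol 2.32%.

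In this fit, with a background offset of 0, the smallest FDR of any interval feature was 0.178, so that none passed an FDR of 0.1 in limma. An unadjusted P below 0.05 was found for 392 interval features (9.65%, against 13.1% of all features). The values of the ages did not overlap for 1506 interval features (37.1%), where the share over all features was 46.0%. The median difference over the interval features was -0.03 on the log2 scale, beside 0.01 over all features. With any 1 array left out limma called 0 interval features, with 226 to 570 at an unadjusted P below 0.05.

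**Figure D2:**
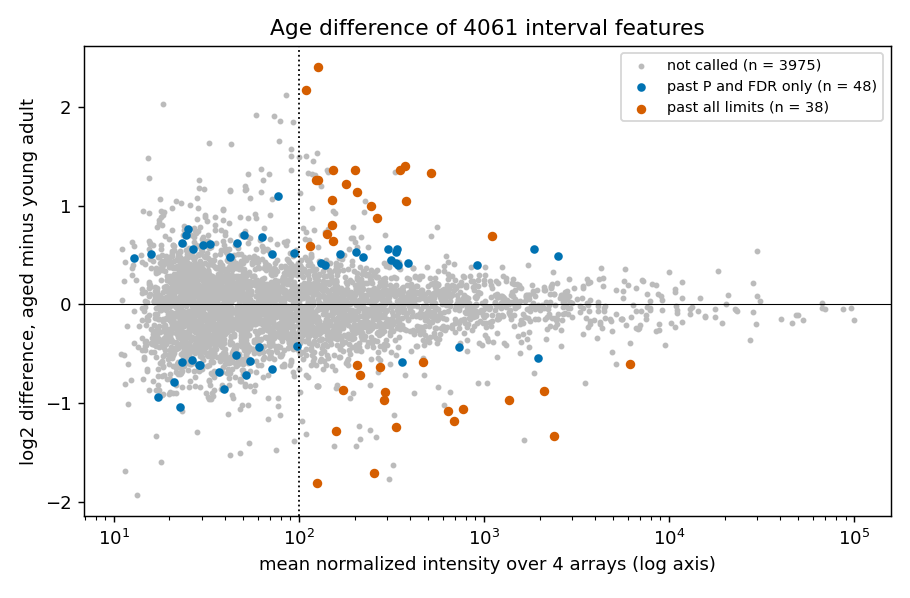
Log2 difference, aged minus young adult (vertical axis), against mean normalized intensity over the 4 arrays (horizontal log axis) for 4061 interval features; the dotted line marks a level of 100 and a point is 1 feature. The 38 features past all limits (orange) lie on both sides of 0, and 30 of the 86 called features lie below the line.

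Of the 86 called features, 30 had a level under 100, 16 were well above background on no array and 55 were so on all 4. Of the 38 past all limits, 34 were well above background on all 4 arrays, 18 of them higher and 16 lower in aged mice. All 38 kept their direction on the slide that held 1 array of each age, and in 35 the difference there was at least 1.5-fold. With a background offset of 50 in place of 0, all 38 were called and 31 stayed past all limits.

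Intervals were then set beside genes with a symbol of like intensity. Among features with a level of at least 100, 56 of 1647 interval features (3.40%) were called, against 1002 of 15466 genes with a symbol (6.48%). Many genes average several probes, and with features of 1 probe only the shares were 3.34% of 1495 and 8.76% of 9005. Between levels of 100 and 200, 2.81% of 604 interval features and 8.21% of 2083 genes were called, and from 200 to 500, 5.11% of 489 and 8.20% of 3086. Of the long noncoding RNA genes with a symbol, 3.07% of 228 were called between 100 and 200, and 8.37% of 215 from 200 to 500. No test was run on the difference between these shares.

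The spread between pools of one age also differed between the classes at like intensity. Between levels of 200 and 500, the median absolute log2 gap between the 2 arrays of an age was 0.18 in the young adult and 0.13 in the aged pair for interval features, and 0.10 in both pairs for genes with a symbol. With features of 1 probe only, the gaps were 0.19 and 0.14 for interval features and 0.11 in both pairs for genes. The median absolute difference between ages in that range was 0.16 for interval features and 0.15 for genes, and 0.16 and 0.18 with features of 1 probe only. Between 100 and 200 the gaps were 0.24 and 0.19 for interval features and 0.16 in both pairs for genes. For long noncoding RNA genes with a symbol they were 0.22 and 0.20 there, and 0.11 in both pairs between 200 and 500. In interval features and in genes the gaps were narrower at levels of 5000 and above than between 100 and 200. The shares called were lower there too (1.15% of interval features and 4.99% of genes). Between 50 and 100 the gaps were wider than between 200 and 500. There 1.37% of interval features and 5.44% of genes were called, against 5.11 and 8.20% between 200 and 500. The bands also differed in the size of the age differences. The median absolute difference between ages was 0.21 in both classes between 100 and 200. At 5000 and above it was 0.13 for interval features and 0.09 for genes. The part of the spread between pools in the shares of calls was not tested.

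**Figure D3:**
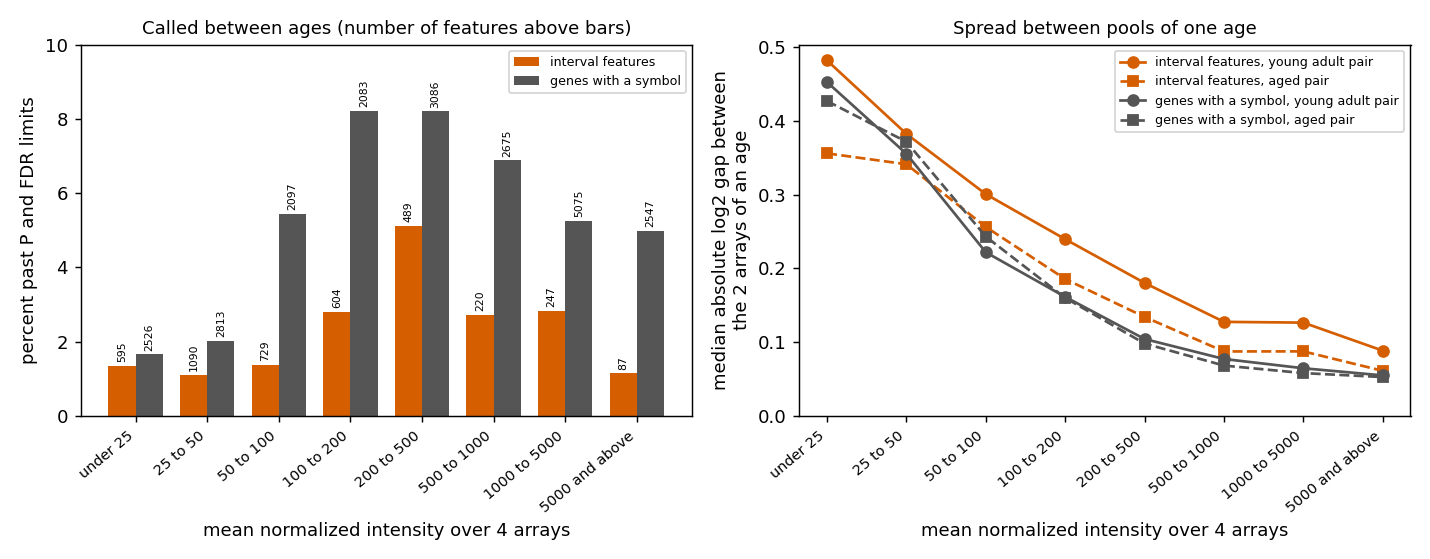
Left, percent of features past the P and FDR limits (bars, from 0) in bands of mean normalized intensity for interval features and genes with a symbol, with the number of features above each bar. Right, median absolute log2 gap between the 2 arrays of an age in the same bands: from a level of 100 upwards both lines of the interval features lie above those of the genes.

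Outside chromosome 18, whose intervals are counted but not named here, the 8 largest rises among features past all limits and well above background on all 4 arrays came from 5 chromosomes. On chromosome 18, 2 features past all limits rose by 1.26 and 1.36 on the log2 scale. The feature chr5:15146475-15170100 F read 244 and 173 in young adult and 547 and 542 in aged mice. Its log2 difference was 1.41 ± 0.21 (SE, FDR = 0.210 by limma), and the ages did not overlap. With the same letter, chr5:14943275-14944205 F, read 320 and 273 in young adult and 726 and 759 in aged mice, a difference of 1.33 ± 0.12 (FDR = 0.178). The feature chr5:15033568-15033987 F read 115 and 82.1 against 208 and 198, a difference of 1.06 ± 0.20 (FDR = 0.248, and 0.284 with 75th percentile scaling, where it was not called). These 3 features lie between 14943275 and 15170100 on chromosome 5, and in each the aged values were above the young adult values.

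On chromosome 1, chr1:85117750-85129200 F read 102 and 124 in young adult and 283 and 298 in aged mice, a log2 difference of 1.37 ± 0.14 (FDR = 0.184). It averages 2 probes, of which 1 was well above background on all 4 arrays and differed by 1.60, and the other was so on 1 array only and differed by 1.13. The feature chr1:87343550-87362900 F read 119 and 139 against 272 and 296, a difference of 1.14 ± 0.12 (FDR = 0.185). Here too 1 probe was well above background on all arrays, with a difference of 1.57, while the other, with a difference of 0.72, was so on none. In both features the brighter probe carried the larger difference.

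The other rises were on chromosomes 8, 11 and 13. The feature chr8:19783770-19784669 R read 76.4 and 94.8 in young adult and 208 and 230 in aged mice (log2 difference 1.36 ± 0.15, FDR = 0.188). The feature chr11:87841800-87858725 F read 78.0 and 67.1 against 180 and 168 (1.26 ± 0.12, FDR = 0.178). The feature chr13:98635795-98646617 R read 113 and 103 against 249 and 253 (1.22 ± 0.09, FDR = 0.178). In each of these the lower of the aged values was more than 1.5 times the higher of the young adult values.

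The falls named by the same rule were, for the most part, in brighter features. The largest of them, chr16:11032048-11036671 F, read 351 and 433 in young adult and 111 and 127 in aged mice, a log2 difference of -1.71 ± 0.16 (FDR = 0.178). The brightest of them, chr2:71576218-71603818 F, read 3247 and 3631 against 1317 and 1410, a difference of -1.33 ± 0.10 (FDR = 0.178). The R feature of the same interval was near the floor, with values of 45.1, 44.4, 37.2 and 44.3, and differed by -0.14. The fall was therefore measured on the F feature alone.

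The feature chr7:106525007-106525661 R read 421 and 520 in young adult and 182 and 213 in aged mice (log2 difference -1.25 ± 0.16, FDR = 0.202). The feature chr1:93812836-93816128 F read 1003 and 924 against 409 and 439 (-1.19 ± 0.09, FDR = 0.178). Both ages stood apart in each. The feature chr9:65376063-65390480 F read 790 and 944 against 390 and 427 (-1.08 ± 0.13, FDR = 0.197), and chr10:87541696-87547421 R read 960 and 1114 against 475 and 517 (-1.06 ± 0.12, FDR = 0.189). The last of the 8 falls were chr16:40592137-40594284 F, at 1750 and 1872 against 885 and 967, and chr12:106566735-106624460 R, at 365 and 396 against 185 and 205, both with a difference of -0.97 ± 0.10. In all 8 falls every young adult value was above every aged value.

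**Figure D4:**
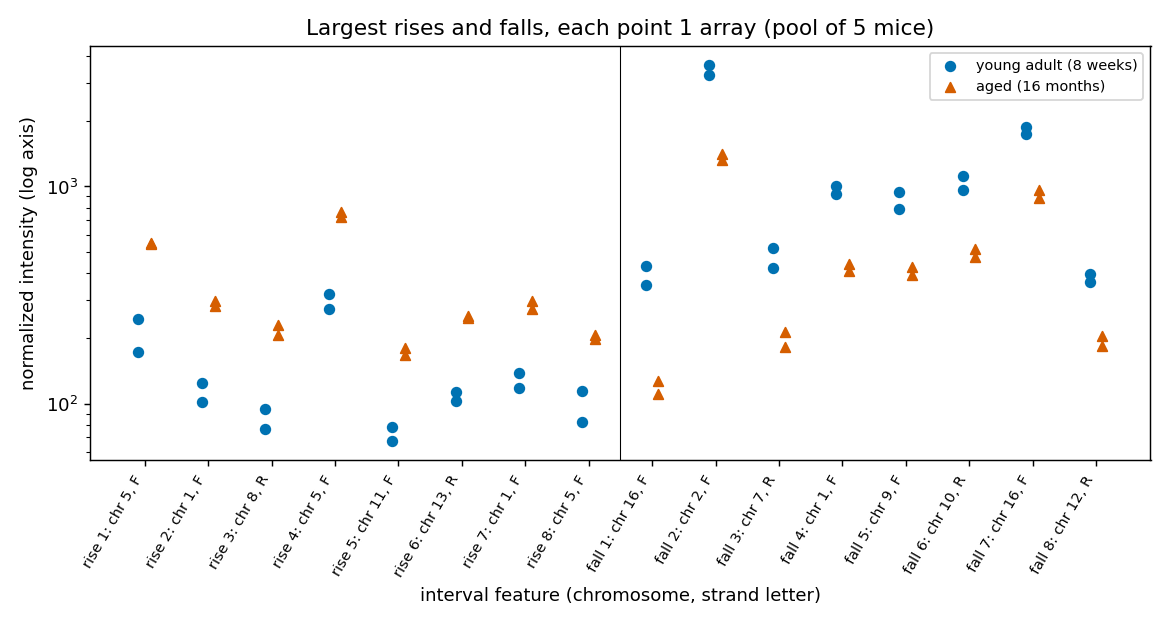
Normalized intensity (vertical log axis) of the 8 largest rises and 8 largest falls among interval features outside chromosome 18 that were past all limits and well above background on all 4 arrays, in the order of size; each point is 1 array, circles young adult and triangles aged. In all 16 the values of the ages do not overlap.

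The largest differences past all limits were in features that missed the background flag on some arrays, and those on chromosomes 4 and 17 were singled out after their values were seen. The feature chr4:35106125-35127700 R read 35.5 and 45.9 in young adult and 206 and 222 in aged mice, a log2 difference of 2.41 ± 0.17 (FDR = 0.178), and was well above background on 3 arrays. The F feature of that interval read 197 and 226 against 149 and 172, a difference of -0.40 (FDR = 0.376). The feature chr17:7793350-7871100 R read 186 and 203 against 49.3 and 62.0, a difference of -1.81 ± 0.16 (FDR = 0.178), also with the flag on 3 arrays. With a background offset of 50 the differences of these R features were 1.54 and -1.21, the latter then smaller than the -1.38 of chr16:11032048-11036671 F. The F feature of the chromosome 17 interval was well above background on 1 array only, and its difference of 1.16 ± 1.19 did not pass. The letters of both intervals gave opposite signs, although only the R features were called.

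Of the called features, 3 were well above background on both arrays of one age and on neither of the other. Their fold is given as a limit, at an offset of 0. The limit sets the bright age against the lowest signal well above background on each array of the other age, or the probe's own signal where that was higher. The feature chr12:89448550-89461843 F was at least 4.32-fold higher in aged mice, with values of 33.7 and 44.8 in young adult and 212 and 146 in aged mice (FDR = 0.200). This limit holds for an offset of 0 only: the fitted log2 difference was 2.18 ± 0.27, and 1.34 with an offset of 50. Its R feature was well above background on all 4 arrays and differed by 0.12. The other 2 were 1.49-fold (chr1:35034564-35047457 R) and 1.64-fold (chr1:138442536-138520766 F) lower in aged mice, at levels of 54.3 and 52.1. For these the limit was the fitted fold itself and not a lower bound. With an offset of 50 their log2 differences were only -0.29 and -0.36. Neither was called with 75th percentile scaling (FDR = 0.271 and 0.33 by limma).

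Features on the same letter were taken as a group when each started within 50 kb of the one before it, so that a group can span more than 50 kb. The 86 called features fell into 82 of 2786 groups, and 3 groups held more than 1 called feature, each in one direction. On chromosome 10, 3 of 4 F features between 96096995 and 96103867 were called higher in aged mice. They were chr10:96096995-96097589 (85.5 and 97.5 against 136 and 140, log2 difference 0.60 ± 0.10), chr10:96098058-96098623 (847 and 840 against 1247 and 1495, 0.69 ± 0.12) and chr10:96103732-96103867 (195 and 178 against 323 and 361, 0.88 ± 0.11). The other, chr10:96100545-96101009, was well above background on no array, and its difference of 0.40 ± 0.28 did not pass. Scaling to the 75th percentile ended the call of chr10:96098058-96098623 (FDR = 0.258 by limma), and the processed signal so scaled that of chr10:96096995-96097589 (FDR = 0.381).

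On chromosome 8, 2 of 3 F features between 89996710 and 90061169 were called. The feature chr8:89996710-90049453 read 271 and 225 in young adult and 517 and 507 in aged mice (log2 difference 1.05 ± 0.13), and chr8:90048940-90049461, which overlaps its end, read 104 and 115 against 198 and 185 (0.81 ± 0.10). The first of these lost its call with the processed signal scaled to the 75th percentile (FDR = 0.267 by limma). The other, chr8:90000619-90061169, overlaps both, read 123 and 67.1 against 116 and 114, and was not called (0.34 ± 0.34, FDR = 0.717). Its R feature read 150 and 220 against 147 and 145 and was not called either. Probes for overlapping intervals therefore did not all give the same value.

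On chromosome 5, 2 of 7 F features between 14921737 and 15062725 were called, both described above. Of the other 5, none was well above background on more than 2 arrays, and their differences ran from -0.61 to 1.27. Over the whole array, both features of 303 overlapping pairs with the same letter were well above background on all 4 arrays. In 184 of these (60.7%) the age differences had the same sign, and the differences of the pairs correlated weakly (Pearson r = 0.21 across pairs, which share arrays and are not independent).

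Both letters were on the array for 832 intervals. Both were detected in 296 of these (35.6%), only 1 in 378 (45.4%, 159 F and 219 R) and neither in 158 (19%). In the 296 intervals the age differences of the letters had the same sign in 162 (54.7%), and Pearson's r across intervals was 0.00. Of the 1664 features of the 832 intervals, 33 were called, each in another interval, where 2.12% of all interval features and 3.98% of all features were called. In 0 intervals were both letters called by limma. In 7 both had an unadjusted P below 0.05, which 9.65% of all interval features had. At such shares few double calls can arise, so that the 0 does not show that the letters differ. With a background offset of 50 both letters were called in 2 intervals.

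**Figure D5:**
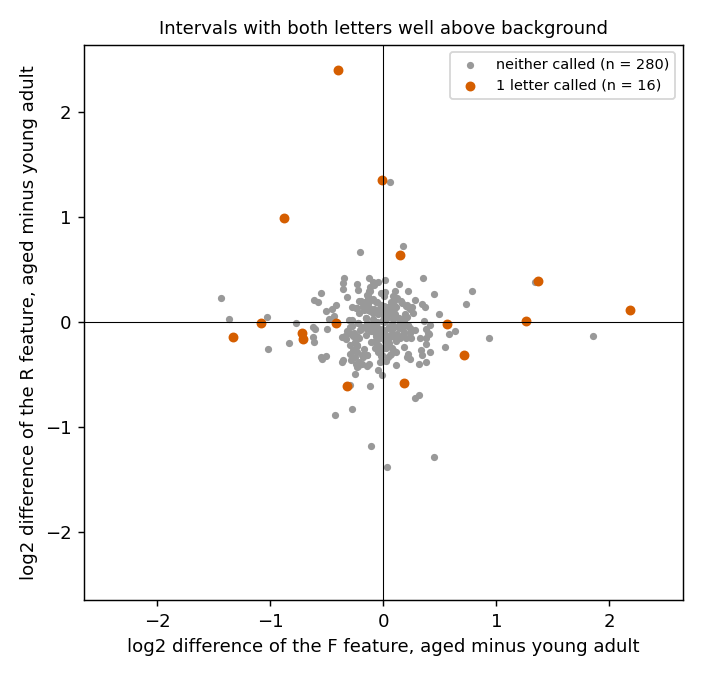
Log2 difference, aged minus young adult, of the F feature (horizontal axis) against that of the R feature (vertical axis) for the 296 intervals in which both features were detected; a point is 1 interval. The 16 intervals with 1 letter called (orange) lie along the axes for the most part, away from 0 on the called letter.

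Probes of one feature also differed. In 97 features with several probes, all probes were well above background on all 4 arrays, and in 51 of these (52.6%) they all differed between ages in the same direction, with a median range of 0.14 between probes. In 51 features 1 probe was well above background on all 4 arrays and another on none. Of the 316 features with several probes, 6 (1.90%) were called, beside 2.12% of all interval features.

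Long noncoding RNA genes that have a symbol were counted beside the intervals, from a list of 70 names of which 49 were measured and 40 were well above background on all 4 arrays. Of these 49, 0 were called higher and 2 lower in aged mice (4.08%, near the 3.98% of all features), with 11 at an unadjusted P below 0.05 in limma (22.4%, against 13.1%) and a median log2 difference of -0.01. Carmn, the host gene of microRNAs of smooth muscle, read 5178 and 5245 in young adult and 3368 and 3565 in aged mice (-0.59 ± 0.08, FDR = 0.206). Dnm3os, a transcript antisense to Dnm3 that is expressed in mesenchyme and hosts microRNAs, read 551 and 558 against 303 and 340 (-0.79 ± 0.10, FDR = 0.200). Meg3, an imprinted noncoding RNA, and Neat1, the scaffold of nuclear paraspeckles, were not called, with differences of -0.10 and -0.04.

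Markers of other tissue moved with age in the same arrays. Of 7 markers of fibroblast, bone and cartilage, 6 were called lower in aged mice, all 7 detected, and their summed level was 157735 and 145487 in young adult against 49684 and 47443 in aged mice. Of 4 pituitary markers, 2 (Prl and Gh) were called higher in aged mice. Pomc was not called (346 and 322 against 383 and 412, FDR = 0.412 by limma). Nor was Cga, which was well above background on 1 array only. The summed level of the 4 was 703 and 620 in young adult against 8972 and 8796 in aged mice. Of these sums, Prl made up 282 and 238 against 8155 and 7969. The part of these cells in the interval features that rose or fell was not tested.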

How the data were processed

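The authors labelled the RNA with Cy3, hybridized 4 one-colour arrays and read them with Feature Extraction 11.0.1.1. The deposited files hold, for each of 62976 spots, the median spot intensity, the median local background, a processed intensity and quality flags, not normalized between arrays. The submitters' processing notes name R 3.2.1.

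From these, the background was taken off with the normexp method of limma (version 3.58.1, R 4.3.3; offset 0). Control spots and spots flagged as outliers were left out, spots of a probe were averaged, log2 values were quantile normalized, and probes of one interval or gene were averaged. A feature counts as well above background on an array when any of its probes does. Differences were fitted with lmFit and eBayes on all 4 arrays without covariates. The limits follow the study's methods. The fit was tested on simulated data with 200 changed features. The lowest count of these that it recovered was 98 (49%), so a changed feature can be missed. With none changed, 0 were called. Of 56605 probes, 32994 matched a RefSeq gene table of another build (GRCm38.p6), used for names only. 12 features with missing values were left out, none an interval. The number of arrays limits the precision.

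Named intervals, all outside chromosome 18, are the 8 largest rises and 8 largest falls past all limits, separate by age and well above background on all arrays; called features above background in one age only; the 5 brightest; and 3 groups with the most calls. Intervals on chromosome 18 (5 called, 2 past all limits) were counted but not named. Members and lists were chosen with earlier results of these data known. No probe sequence and no mm9 annotation were used here. Alternatives were other background corrections, scalings, filters, limits and tests, the replicate number as a block, the shared slide alone and each array left out.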

Additional observations from a re-analysis of the deposited data

How the results depend on the processing

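With 4 arrays the calls rest on a spread estimated from few values. The count of called interval features, 86, was 143 and 230 with background offsets of 16 and 50, 192 with no background correction, 242 with the processed signal and quantile normalization, 390 of 2135 with bright probes only, and 345 with an intensity trend. In the main fit, with an offset of 0, it was 0 at FDR limits of 0.1 and 0.05. This did not hold for every setting. With an offset of 50, chr2:71576218-71603818 F had an FDR of 0.021 and chr1:93812836-93816128 F of 0.022 by limma. The count past all limits, 38, was 60 with bright probes only, 70 with the trend, 24 with a level limit of 200 and 21 with a fold limit of 2. Under the other settings of background and scaling it stayed between 35 and 50. At a level of at least 100, the shares called were 8.62% of interval features and 16.2% of genes with a symbol with an offset of 50, and 19.5 and 26.6% with bright probes only. The cause of these shifts was not tested.

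With the replicate number as a block, 0 interval features were called by limma and 0 were past all limits, with 408 at an unadjusted P below 0.05. Whether the numbers pair the samples is not settled, since the 2 arrays with the number 1 share a slide. Deviations of samples with the same number correlated at -0.08 over all features and -0.06 over the interval features. With any 1 array left out, both counts were 0 (0 to 0). The 24 called intervals among the 36 named lost their call in each of these fits, and none of the 24 reversed. The difference in the share of flagged probes, -7.90 points, ran from -16.3 to 0.54 when 1 array was left out, and reversed to 0.54 without young adult array 2.

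The sign of 5 uncalled named intervals changed under some setting. For chr14:78924115-78938125 F the difference was 0.044 and 0.018 with the processed signal under quantile and 75th percentile scaling, and -0.100 to 0.029 with 1 array left out (positive without young adult array 2). For chr7:108209996-108216032 R it was -0.022 with 75th percentile scaling and -0.046 with cyclic loess. With 1 array left out it ran from -0.093 to 0.777 for chr8:90000619-90061169 F (negative without young adult array 2) and from -0.102 to 0.011 for chr12:73838608-73862621 R (positive without aged array 2). On the shared slide alone the sign also changed for chr5:14921737-14978834 F (-0.034), chr14:78924115-78938125 F (0.040) and chr8:90000619-90061169 F (-0.077). With 75th percentile scaling 4 called named intervals lost their call, and with the processed signal so scaled 3 did. The brightest interval, chr17:17481706-17482457 R, was called with the intensity trend only (-0.157, FDR = 0.169 by limma). The comparison of features of 1 probe only was chosen after seeing the data. The slide as a random block was not run, since 3 slides for 4 arrays gave no estimate of the correlation.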

Other observations

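The counts of called intervals differed between chromosomes, as was noticed after the values were seen. On chromosome 8, 12 of 247 interval features were called higher and 1 lower, on chromosome 1, 3 of 309 higher and 7 lower, and on chromosome 10, 5 of 178 in each direction. On chromosome 19, 0 of 88 were called by limma, with 8 at an unadjusted P below 0.05. Of the rises, 3 on chromosome 10 lay in 1 group of neighbouring features, and 2 on chromosome 8 in another. Of all interval features, 2.12% were called (1.23% higher and 0.886% lower). Of all features on the array, 3.98% were called (1.65% higher and 2.33% lower). No test of the counts by chromosome was run.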
